A study of Drosophila melanogaster with 4 samples.

Results

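The Drosophila melanogaster expression array used here carried 26228 targets, of which 26219 had at least 1 usable spot on every array, and 241 of these were cDNA clones from embryo libraries. They were taken as all targets whose array name was LD or RE followed by exactly 5 digits, which gave 105 LD clones and 136 RE clones. Where a clone had several probes, the one with the highest mean log2 processed signal over the 4 arrays stood for it. The set included LD38807, the clone of grainy head (grh), the gene that was mutant in the study.

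LD and RE are prefixes that the Berkeley Drosophila Genome Project gave to clones of cDNA libraries made from embryo RNA, whereas its GH clones came from adult heads and its AT clones from adult testis. Such clones were made by copying messenger RNA into DNA, so each is a record of a transcript that was present in the source tissue, including transcripts of genes that no prediction had found. grh encodes the founding member of the Grainy head family of transcription factors, which in flies is expressed in the epidermis, the tracheae and the nervous system and is needed for a sound cuticle.

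The study asked which transcripts differed between embryos lacking grh function and wild-type embryos at the time of cuticle deposition. Homozygous grhIM embryos (+; cn, grhIM, bw, sp; +) were compared with wild-type embryos (y; cn, bw, sp; +), so both genotypes carried cn, bw and sp, and the control alone carried y. The mutants came from parents with the chromosome over a balancer, CyO marked with Kruppel-GFP, and were picked as embryos without GFP. Each genotype had 2 arrays, each hybridised with Cy3-labelled RNA of a separate pool of about 500 whole embryos, which were kept at 25°C until late in stage 16 or early in stage 17. All 4 arrays lay on 1 slide. The grhIM allele is a stop codon at the start of the DNA-binding domain, so the level of grh RNA is no check of the genotype labels. Whole embryos were used, so fewer cells of a type and less RNA per cell cannot be told apart, nor can the grh lesion and the other differences between the 2 stocks.

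Levels are log2 processed signals after cyclic loess normalisation of the 4 arrays, and each difference is grhIM minus wild-type on that scale with its standard error (SE) from limma, fitted over 20340 targets. A target was counted as expressed, and tested, if its probe was flagged well above background on both arrays of at least 1 genotype. It was called if its Benjamini-Hochberg adjusted p, taken over all tested targets, was under 0.01. Median raw signals of the gene spots were 557 to 629 on the 4 arrays, against 53 to 57.5 for the negative control spots, and 0 gene spots were saturated. With 2 arrays per genotype, the number of arrays limits the precision.

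Of the 241 clones, 230 (95.4%) were expressed, compared with 77.6% of all targets. By library, 98 of 105 LD clones (93.3%) and 132 of 136 RE clones (97.1%) were expressed. Among the clones of other tissues, 119 of 127 GH clones (93.7%) and 80 of 158 AT clones (50.6%) were expressed in the same embryos. The embryo clones were thus detected about as often as those from adult heads, and the testis clones stood lower. None of these shares was tested against another.

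**Figure D1:**
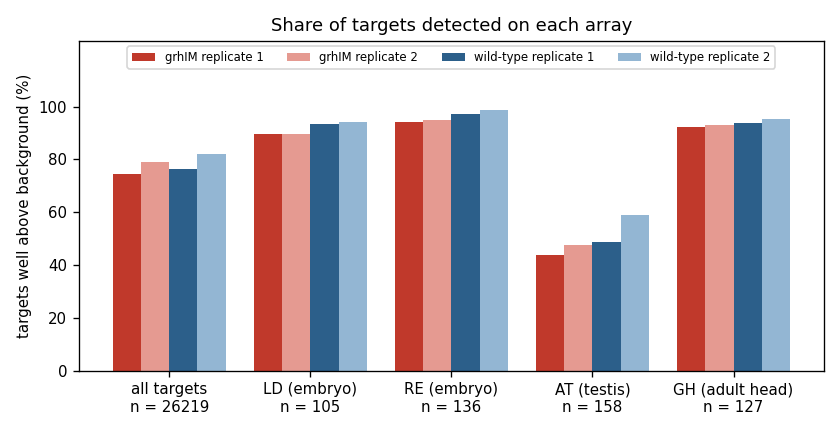
Percent of targets well above background on each of the 4 arrays (vertical axis, from 0), for all targets and for clones of 4 libraries, with 1 bar per array. LD and RE clones sit at 89.5% or more on every array, whereas AT clones sit between 43.7% and 58.9%.

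On the single arrays, 222 and 223 of the 241 clones were well above background in grhIM, and 230 and 233 in wild-type. The genotypes did not overlap in this count. Over all targets the shares were 74.5% and 78.8% in grhIM and 76.4% and 82.2% in wild-type, and there the genotypes did overlap. In all, 222 clones were above background on 4 arrays, 1 on 3 arrays, 7 on 2, 3 on 1 and 8 on none.

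The 7 clones detected on 2 arrays were above background on both wild-type arrays and on neither grhIM array, which is 3.04% of the tested clones, beside 1.60% of all tested targets. The opposite pattern was found for 0 clones, beside 0.487% of all tested targets. These 7 passed the filter through the wild-type arrays alone, so a lower level in grhIM was largely fixed by that sorting. Their p-values and folds, here and below, are therefore no separate evidence of a fall. Only 2 of the 7 were called (tun and LD43581). The others had limma adjusted p between 0.0199 and 0.0472. The wild-type means of all 7 ranged from 4.28 to 6.89, in the lower part of the scale. The 11 clones that were not tested comprised 7 LD and 4 RE clones, with levels of 1.41 to 4.14 on the single arrays. One of them, LD11861, is paired with CG15233 and was above background on 1 array only.

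Between the genotypes, 22 of the 230 expressed clones were called by limma, 9 higher and 13 lower in grhIM. This is 9.57% of the clones, beside 9.23% of all tested targets (4.02% higher and 5.21% lower). The share called among the embryo clones was therefore close to the background of the array. By library, 8 of 98 LD clones were called, 4 in each direction, and 14 of 132 RE clones, 5 higher and 9 lower. Among the clones of adult tissues, 21 of 119 GH clones were called, 4 higher and 17 lower, and 15 of 80 AT clones, 7 higher and 8 lower. None of these shares was tested against another. Leaving out 1 array changed the count of calls over the whole array. It also changed the count of embryo clones called, except where grhIM replicate 2 was left out. The clones called were 14 when grhIM replicate 1 was left out (beside 5.46% of all targets) and 14 when wild-type replicate 2 was left out (beside 4.68%). Without wild-type replicate 1 limma called none of the clones and none of all targets. In such fits 1 genotype has a lone array, which is assumed to vary like the pair of the other genotype.

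The spread of the differences was also near that of the array. The median difference was -0.02 in the clones and -0.01 over all tested targets, and the median absolute difference was 0.24 and 0.26. A difference of at least 2-fold was measured for 26 clones (11.3%), beside 11.5% of all tested targets. The 2 arrays of each genotype did not overlap for 148 clones (64.3%), beside 64.2%. LD clones had a median absolute difference of 0.15 and RE clones of 0.29. Replicate pools differed by a median of 0.10 in grhIM and 0.20 in wild-type, so the wild-type pools were the less alike.

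**Figure D2:**
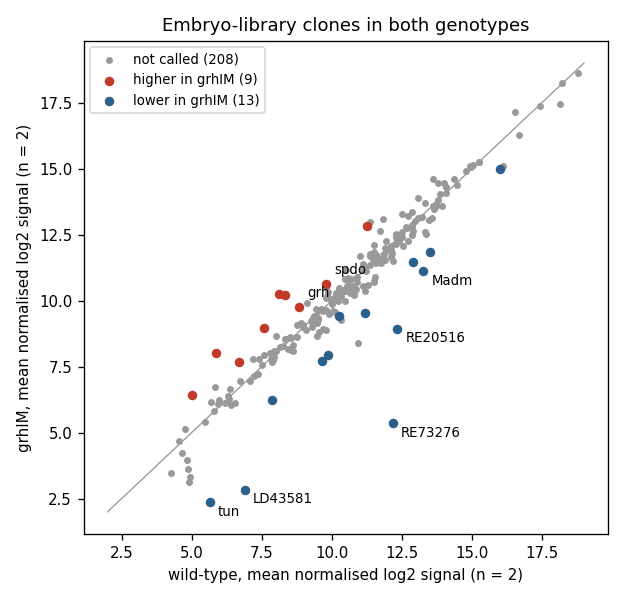
Mean normalised log2 signal of the 230 expressed clones in wild-type (horizontal axis) and grhIM (vertical axis), n = 2 arrays per genotype, with the line of equal level. Most clones lie along the line, 9 called clones lie above it and 13 below, with RE73276 farthest from it.

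A gene could be paired with 32 of the 241 clones (16 LD and 16 RE), and 31 of these were tested. They comprised 27 protein-coding genes, 2 pseudogenes, 2 long non-coding RNAs and 1 antisense RNA. limma called 4 of the 31, beside 9.23% of all tested targets, with grh and spdo higher and tun and Madm lower in grhIM. In 20 of the 31 the difference was smaller than 0.5 in size, and the median size over all tested targets was 0.26. Of 22 lists of genes for cuticle, epidermis, immunity, stress, nervous system and other functions, 2 held a clone of the set, both times grh. None of the 32 was paired with a gene in the study's own categories of cuticle, adhesion, immunity, stress and detoxification genes. Those categories hold only select genes that the study found misregulated on these same arrays. Absence from them does not say what the gene of a clone does. The other 209 clones have no gene name here and could not be checked against these lists.

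The clone of grh itself was higher in the mutant. Its brightest probe had levels of 9.67 and 9.84 in the grhIM pools and 8.75 and 8.89 in the wild-type pools. Both mutant pools were above both wild-type pools. The difference was 0.93 ± 0.13 (SE, n = 2 arrays per genotype), or 1.91-fold. Its limma adjusted p was 0.00947, just inside the threshold. The adjusted p ranged from 0.00420 to 0.0646 over 14 other ways of processing the data, 6 of which kept the call, and the difference ranged from 0.62 to 1.02. LD38807 had 2 further probes. One read 9.24 and 9.48 in grhIM and 8.39 and 8.59 in wild-type, a difference of 0.87 ± 0.15 with a limma adjusted p of 0.0171 over all probes. The other read 6.45 and 6.30 in grhIM and 6.45 and 6.02 in wild-type, a difference of 0.14 ± 0.18 (limma adjusted p = 0.637). The 2 brighter probes thus gave a rise of like size, of which 1 passed the threshold, and on the dimmest probe the genotypes overlapped. By reverse transcription PCR on biological replicates, the paper found grh transcripts in grhIM embryos at about the wild-type level. The paper's text gives no fold for that comparison, and whether the 2 methods differ was not tested.

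Several clones belonged to genes of transcription and chromatin. eya (eyes absent), a transcriptional cofactor and phosphatase of eye development, read 6.66 and 6.77 in grhIM and 5.97 and 5.67 in wild-type. The genotypes did not overlap, but the difference of 0.89 ± 0.15 did not pass the threshold (limma adjusted p = 0.0160), and a second probe gave 0.79 ± 0.14. otp (orthopedia), a homeodomain transcription factor of the nervous system and hindgut, read 10.37 and 10.27 in grhIM and 10.01 and 9.70 in wild-type, a difference of 0.46 ± 0.15 (limma adjusted p = 0.0966). It was not called. retn (retained), an ARID-domain transcription factor, read 13.06 and 12.99 in grhIM and 12.67 and 13.26 in wild-type, so that the wild-type pools enclosed the mutant pools. Opbp, a zinc-finger protein, and Hmt4-20, the methyltransferase of histone H4 lysine 20, had differences of 0.18 ± 0.11 and -0.15 ± 0.12. Neither was called.

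Among genes of the cell surface and signalling, spdo rose. It encodes Sanpodo, a membrane protein that acts in Notch signalling during asymmetric cell division. The levels were 10.65 and 10.61 in grhIM and 9.81 and 9.74 in wild-type. The pools of each genotype lay within 0.07 of each other and the genotypes were apart, with a difference of 0.85 ± 0.11, or 1.80-fold (limma adjusted p = 0.00779). The adjusted p ranged from 0.00281 to 0.0708 over the alternatives, and 7 of 14 kept the call. sdk (sidekick), an adhesion protein of the immunoglobulin superfamily, read 8.58 and 8.71 in grhIM and 9.26 and 9.72 in wild-type, a difference of -0.84 ± 0.18 that was not called (limma adjusted p = 0.0359). caps (capricious), a leucine-rich repeat protein of the cell surface, had a difference of 0.05 ± 0.13, and myo (myoglianin), a ligand of the TGF-beta family, of -0.09 ± 0.13. In both genes the genotypes overlapped. Evi5, which belongs to a family of GTPase-activating proteins for Rab, had a difference of 0.08 ± 0.11. The small differences of caps, Evi5 and retn turned negative when the arrays were scaled to the spike-in spots, which shifted the median of all targets to -0.12.

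Madm was the only named clone above background on all 4 arrays that was called lower. It encodes a pseudokinase that promotes growth. The levels were 11.16 and 11.05 in grhIM and 13.50 and 13.05 in wild-type, so both mutant pools were below both wild-type pools by a wide margin. The difference was -2.16 ± 0.18, which is 4.47-fold lower (limma adjusted p = 0.00217). The difference ranged from -2.39 to -1.94 over the alternatives, and 13 of 14 kept the call, with limma adjusted p from 0.000302 to 0.0156.

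The clone of tun, LD38553, was detected in wild-type only. It read 2.23 and 2.50 in grhIM, where the probe was not well above background, and 5.84 and 5.45 in wild-type. For such a probe the fold was taken as a lower bound, against the higher of the dim probe's own signal and the lowest signal well above background on each array. tun was at least 5.61-fold lower in grhIM (limma adjusted p = 0.000733). The size depended on the processing. The difference was -0.87 in the deposited table, where it was called, and -0.49 under background correction of the median signal by normexp, where it was not (limma adjusted p = 0.129). Both are smaller than this bound.

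CG14326 had the largest difference of the named clones that were not called. It read 8.54 and 8.25 in grhIM and 11.64 and 10.27 in wild-type. The wild-type pools lay far apart from each other but both above the mutant pools. The difference was -2.56 ± 0.46, or 5.89-fold (limma adjusted p = 0.0205). It was called in 7 of 14 alternatives, with adjusted p from 0.00155 to 0.0487. The pools of CG13049 also lay apart within each genotype, with 14.81 and 15.38 in grhIM and 15.67 and 16.57 in wild-type, a difference of -1.02 ± 0.36 (limma adjusted p = 0.116). Mayo had a difference of -0.77 ± 0.15 (limma adjusted p = 0.0254) and CG11563 of -0.45 ± 0.14 (limma adjusted p = 0.0931).

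None of the clones described next was called. They are for genes of metabolism and protein turnover, and for CG11825 and CG13678, whose function is not given here. Pdk, the kinase that inhibits pyruvate dehydrogenase, read 13.43 and 13.27 in grhIM and 12.68 and 13.02 in wild-type, a difference of 0.50 ± 0.16 (limma adjusted p = 0.0990). Sdhaf3, an assembly factor of succinate dehydrogenase, had a difference of -0.18 ± 0.11. CG31522, of the family of fatty-acid elongases, had -0.19 ± 0.13. Usp47, a ubiquitin-specific protease, had 0.32 ± 0.14 and CG11825 had 0.32 ± 0.13. cl (clot), which is needed for the red eye pigments, read 14.25 and 14.35 in grhIM and 13.78 and 14.34 in wild-type. CG13678 read 17.29 and 17.46 in grhIM and 17.31 and 17.57 in wild-type. In both genes the genotypes overlapped.

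The clones of transcripts without a protein were not called either. Of the long non-coding RNAs, CR30009 read 7.86 and 7.71 in grhIM and 7.46 and 6.94 in wild-type, a difference of 0.58 ± 0.20 (limma adjusted p = 0.113). A second target of CR30009 on the array gave 1.15 ± 0.37 (limma adjusted p = 0.0974). CR32194 was above background in wild-type only, with 3.29 and 3.65 in grhIM and 4.28 and 4.28 in wild-type. That makes it at least 1.71-fold lower with a limma adjusted p of 0.0259. Its difference was only -0.13 under normexp (limma adjusted p = 0.423), smaller than this bound, and its probe was absent from the deposited table. The pseudogenes CR14798 and CR14033 had differences of 0.45 ± 0.13 and -0.19 ± 0.13, and the antisense RNA CR31514 of -0.16 ± 0.23. Second targets also existed for Evi5 and Sdhaf3, with differences of -0.24 ± 0.15 and -0.12 ± 0.11, so that the 2 targets of Evi5 differed in sign, and neither was called.

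**Figure D3:**
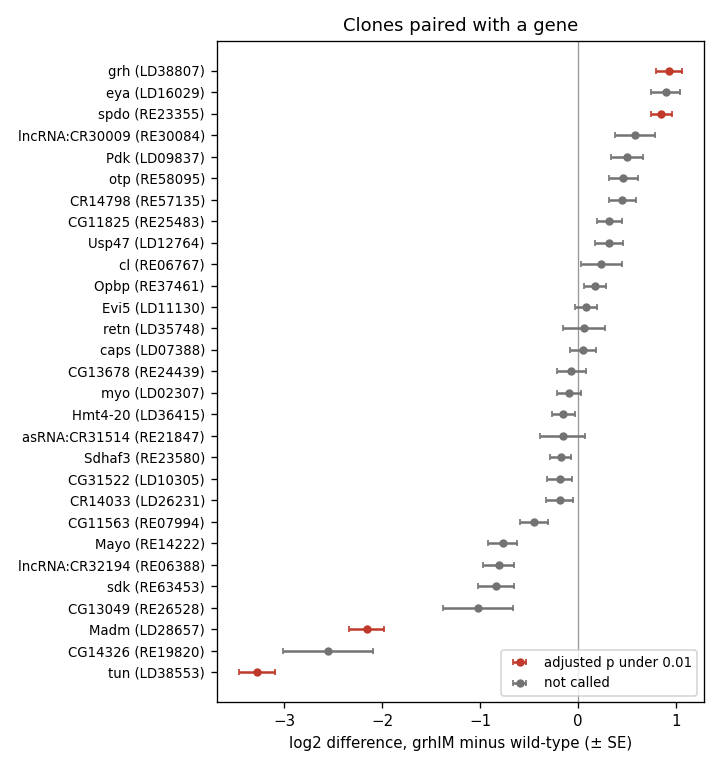
Difference in log2 signal, grhIM minus wild-type (horizontal axis), with its SE (bars, 2 arrays per genotype), for 29 of the 31 tested clones paired with a gene. The 4 called clones are in red, and 18 of the 29 lie within 0.5 of 0.

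Of the 22 called clones, 18 had no gene name in the reference table. The 3 largest of these differences were falls, those of RE73276, LD43581 and RE20516. RE73276 read 5.53 and 5.17 in grhIM and 12.40 and 11.95 in wild-type. It was above background on all 4 arrays, and the genotypes lay far apart. The difference was -6.83 ± 0.21, or 114-fold (limma adjusted p = 0.000249), the largest in size of the 230 clones. RE20516 read 8.92 in both mutant pools and 12.43 and 12.26 in the control pools, a difference of -3.42 ± 0.12, or 10.72-fold (limma adjusted p = 0.000259). Without wild-type replicate 1, where no target passed, neither clone was called, and each kept its call under the other 13 alternatives. The size of the fall of RE73276 depended on the processing, with -4.78 under normexp and -5.58 in the deposited table.

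LD43581, named here because it was with tun the only called clone at background in a genotype, read 2.62 and 3.05 in grhIM and 7.17 and 6.60 in wild-type. It was at least 12.9-fold lower in grhIM (limma adjusted p = 0.000980), but its difference was -1.26 in the deposited table and -0.69 under normexp (limma adjusted p = 0.0994), both smaller than this bound. The other 8 unnamed falls were above background on all 4 arrays and ranged from -1.94 to -0.84.

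The rises were smaller than those 3 falls. RE09036 read 8.18 and 7.86 in grhIM and 6.12 and 5.61 in wild-type, a difference of 2.16 ± 0.22, or 4.46-fold (limma adjusted p = 0.00395). It was called in 10 of 14 alternatives, with limma adjusted p from 0.000240 to 0.0807. The difference was 0.98 under normexp and 1.43 in the deposited table, and the call was lost under normexp, with no filter on dim probes and without either wild-type array. RE36839 read 10.24 on both grhIM arrays and 8.30 and 7.91 in wild-type, a difference of 2.13 ± 0.16, or 4.39-fold (limma adjusted p = 0.00164). Its call was lost under normexp (difference 1.66) and without wild-type replicate 1 (difference 2.33). In both clones every mutant pool was above every wild-type pool. The other 5 unnamed rises ranged from 0.98 to 1.88. Over all 22 called clones, the size of the difference ranged from 0.84 to 6.83 with a median of 1.65.

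**Figure D4:**
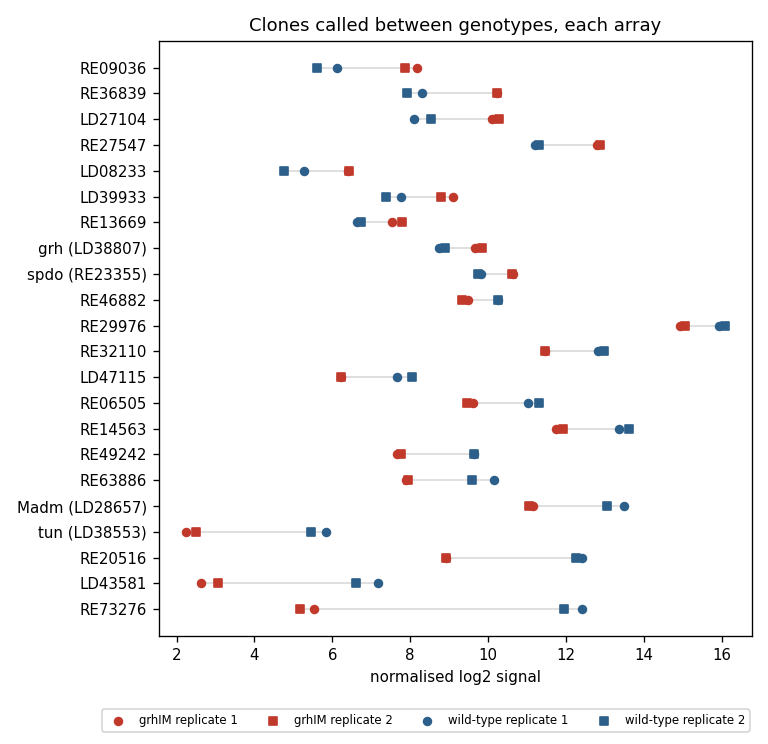
Normalised log2 signal on each of the 4 arrays (horizontal axis) for the 22 called clones, sorted by difference, with grhIM in red and wild-type in blue. In each clone the 2 genotypes are separate, and the widest gap is that of RE73276, from 5.53 to 11.95.

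How far 1 probe spoke for a clone could be seen in the 28 clones with several probes, 3 of them with 3 probes. In 24 of these at least 2 probes were tested. Their probes had differences of the same sign in 19 of 24, and the median gap between the highest and lowest difference of a clone was 0.16, beside 0.18 for the 4002 such targets of the array. The gap was over 0.5 in 5 clones (20.8%), beside 19.3%. At least 1 probe was called in 4 of the 24, beside 12.2% of such targets and 9.01% of all 25333 tested probes. LD27104 and RE14563, named here after their values were seen, were the clones with every probe called. The probes of LD27104 gave 1.88 ± 0.19 and 2.12 ± 0.16, and those of RE14563 gave -1.66 ± 0.15 and -1.63 ± 0.11. In both clones the probes gave like values, but these clones were chosen because every probe was called.

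The probes of RE43210 differed the most. Its brightest probe, which stood for the clone, read 16.23 and 16.30 in grhIM and 16.84 and 16.55 in wild-type, a difference of -0.43 ± 0.14 that was not called (limma adjusted p = 0.106 over all probes). A second probe read 13.45 and 13.19 in grhIM and 16.04 and 15.88 in wild-type, a difference of -2.64 ± 0.15 (limma adjusted p = 0.000712). The third read 12.74 and 12.84 in grhIM and 15.21 and 14.98 in wild-type, a difference of -2.30 ± 0.13 (limma adjusted p = 0.000788). All 3 probes were lower in both mutant pools, but the sizes differed by up to 2.21. Counted by at least 1 called probe, 23 clones of the set were called rather than 22.

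**Figure D5:**
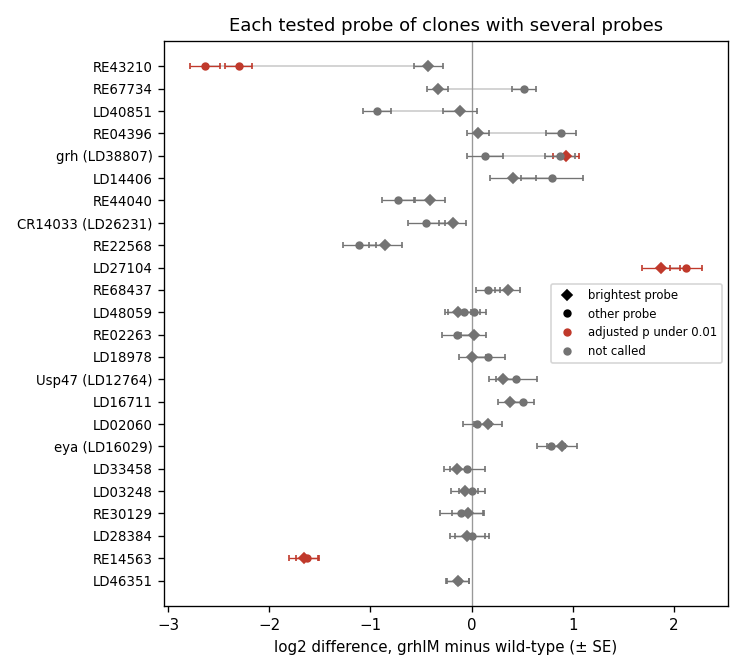
Difference in log2 signal, grhIM minus wild-type (horizontal axis), with its SE, for each tested probe of the 24 clones with at least 2 tested probes, sorted by the gap between probes. Diamonds mark the brightest probe and red marks probes that were called. RE43210 has the widest gap, with probes from -2.64 to -0.43.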

How the data were processed

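Per the file headers, the deposited scanner files came from Feature Extraction 10.7.3.1 (Agilent), run by the authors on a design of the dm3 build, and hold for each spot a background-subtracted processed intensity and quality flags. The authors' own multiple-loess normalised intensity is in the deposited series table, which was used as an alternative only.

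Control spots and outlier spots (44 to 58 per array) were left out, spots of a probe were averaged on the log2 scale, and the 32147 probes were normalised by cyclic loess (span 0.7, 3 iterations) in limma 3.58.1 under R 4.3.3. The fit had genotype as its only term. A probe was well above background if at least 0.5 of its spots were. P-values and SEs rest on the spread between 2 pools per genotype. limma moderated that spread towards a common value estimated over all fitted targets or probes. All 4 arrays lay on 1 slide, so no batch could be tested.

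Clones were named through RefSeq synonyms and accessions of assembly Release 6, which matched 32 of 241. No coordinates or sequences are given. The rule for names took grh, the called clones with a gene, the 5 clones with a gene and the highest wild-type level, and the text gives the other clones with a gene too, except 2 that are not reported here. It also took the 2 largest called rises and falls without one (above background on all arrays), and the clone whose probes differed most. The members, lists and tests were chosen with earlier results of these data known. The script was also run on simulated data with independent errors, which is no test of the calls on these arrays. Alternatives were other normalisations, normexp (offset 50) on the median signal (no mean signal was used here), the deposited table, other filters, the mean over probes, other eBayes settings, a replicate block and leaving out each array.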

Additional observations from a re-analysis of the deposited data

How the results depend on the processing

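The count of 22 called clones stayed within 1.5 times under 75th percentile, quantile and spike-in scaling, the deposited table, the filter on all 4 arrays, the mean over probes, a 2-fold minimum and counting any called probe, with 18 to 31 called. It was 9 under normexp (8 of them among the 22, and 1 of 9 higher, against 9 of 22; beside 2.63% of all targets), 9 with no filter on dim probes (all among the 22, 2 of them higher; beside 3.37%), 35 with eBayes trend and robust settings (beside 11.7%), 54 at an adjusted p under 0.05 (beside 20.8% of all tested targets), and 0 to 22 on leaving out 1 array. Of all tested LD clones, 8 were called in the main fit, 1 under normexp and 3 with no filter. With trend and robust settings 13 were called, and 17 at an adjusted p under 0.05. Of all tested RE clones, 14 were called in the main fit, 8 under normexp (7 among the 14) and 6 with no filter. With trend and robust settings 22 were called, and 37 at an adjusted p under 0.05. On leaving out 1 array the count of RE clones called was 0 to 15. The replicate number as a block raised the counts to 41 clones (14 LD and 27 RE), all 22 among them, beside 14.6% of all targets. The labels do not say that a number marks a shared day or batch, and same-numbered pools deviated together with a correlation of 0.25 over 20340 targets in 2 pairs, so the numbers were not taken as pairs. The count of 230 expressed clones was 222 to 233 under every other definition.

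grh kept its direction in all 14 alternatives, but was not called under spike-in scaling (0.83), normexp (0.62), no filter (0.93), the mean over its probes (0.65) or any fit without 1 array (0.85 to 1.02). For the other called clones, 215 comparisons with an alternative kept direction and call and 77 lost the call. None turned its direction. Among named clones and RE43210, which were not called, 12 comparisons gained a call, 7 of them for CG14326, and 11 turned in sign: caps to -0.048, Evi5 to -0.022 and retn to -0.041 with spike-in scaling, and CG13678 to 0.033 in the deposited table. On leaving out 1 array, the difference ranged from -0.063 to 0.18 for caps, from -0.24 to 0.35 for retn, from -0.049 to 0.51 for cl, from -0.48 to 0.17 for CR31514, from -0.19 to 0.014 for myo and from -0.21 to 0.048 for CG13678. The cause of these changes was not tested. Signals near the negative controls limit what can be said of the 7 clones seen in wild-type only and of the 11 that were not tested.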

Other observations

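Among the clones, the widest gap between replicate pools was that of RE26656, chosen after its values were seen, with 13.01 and 9.96 in grhIM and 12.50 and 11.88 in wild-type (difference -0.71 ± 1.00, limma adjusted p = 0.667). The widest gap between wild-type pools was that of RE63496, with 10.35 and 8.70, and 10.02 and 9.23 in grhIM (difference 0.10 ± 0.60, limma adjusted p = 0.927).

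The threshold fell among clones of like evidence. The 5 called clones with the highest adjusted p had 0.00933 to 0.00981 in limma, grh among them, and the 5 uncalled clones with the lowest had 0.0105 to 0.0131.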
